A study of Mus musculus with 4 samples.

Results

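The proteasome genes were examined in RNA recovered by a ribosome pulldown from the hippocampus of sleep-deprived and control mice. They were chosen by name as the protein-coding genes of GENCODE mouse release 21 whose symbol is Psm followed by a letter from a to g and a number. The rule gave 48 genes out of 21794 protein-coding genes matched in the files, and it used no measured value. Of the 48 genes, 46 passed the filter on low counts and are called measured, out of 14916 measured genes in all.

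All mice were of strain C57BL/6J, aged 4 months, and of the line P2RY12CreER x Rpl22HA RiboTag, in which a Cre under the microglial gene P2ry12 turns on Rpl22 with an HA tag, by which ribosomes and their bound RNA are pulled down. The sleep-deprived mice were fear conditioned and then kept awake for 6 h. The control mice were fear conditioned and then allowed to sleep for 6 h. Fear conditioning pairs a place or a cue with a shock, and both groups received it. Each sample pooled 2 mice, and the RNA was enriched for polyA before sequencing. Groups were taken from the sample titles, because the treatment field names sleep deprivation for all 4 samples.

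The proteasome is the barrel-shaped protease that degrades proteins marked with ubiquitin. Its 20S core is built of alpha rings, which gate the entrance, and beta rings, which hold the catalytic sites. The 19S regulatory particle caps the core: its lid removes ubiquitin chains and its base unfolds the substrate with ATPases. Other caps, the PA28 and PA200 activators, open the core without ubiquitin recognition. In immune cells, microglia among them, interferon can induce Psmb8, Psmb9 and Psmb10, whose products replace the constitutive catalytic subunits and form the immunoproteasome, which is known for making peptides for antigen presentation.

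The files held 14473030 and 14431647 estimated reads for the sleep-deprived group and 14877011 and 14833320 for the control group. Within each group the 2 files were closer to each other than counting noise allows for separate libraries, and they entered as 1 sample. Each comparison therefore has n = 1 on both sides, and neither a replicate check nor a p-value can be given. Among 41 proteasome genes with at least 100 reads, the 2 files differed by a median of 0.625% in the sleep-deprived group and 0.630% in the control group. Markers of several cell types were present and moved between the libraries. The 14 microglial markers summed to 586 and 585 counts per 1000000 reads (CPM, here without further scaling) in the sleep-deprived files, against 184 and 183 in the control files, and all 14 were at least 1.5-fold higher. Summed neuronal markers stood at 3144 and 3136 CPM in the sleep-deprived files and 3699 and 3690 in the control files. The 9 neuronal markers did not move together. By the scaled ratio of sleep-deprived over control, 3 were higher, up to 1.70 for Slc17a7, and 6 lower, down to 0.575 for Gad1. These are calls with no minimum fold, which took in 31.4% of all measured genes as higher and 30.5% as lower. Summed astrocyte markers stood at 1130.1 and 1126 CPM in the sleep-deprived files and 2001 and 1998 in the control files. Summed oligodendrocyte markers stood at 1869.6 and 1861 in the sleep-deprived files and 3139.9 and 3128 in the control files. By the same calls, 1 of the 6 was higher, Mag at 1.46, and 5 lower, down to 0.169 for Opalin. No marker of these lists was at 0 in both libraries, and neuronal, astrocyte and oligodendrocyte markers were present in all 4 files of this microglial pulldown. The constitutive proteasome genes are active in all of these cell types, so a level here is a level of the mixture. The part of cell makeup in the values below was not tested, and fewer cells of a type cannot be told apart from less RNA per cell.

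Taken as a whole, the proteasome genes lay slightly lower in the sleep-deprived library, with a single large increase in the activator gene Psme4. Levels compared between libraries are CPM scaled further by TMM, which adjusts for differing RNA makeup, and a ratio is sleep-deprived over control. The 46 measured genes together summed to 2532 CPM in the sleep-deprived library and 2616 CPM in the control library, a ratio of 0.968 with a 95% counting interval of 0.954 to 0.982. Without Psme4 the remaining 45 genes summed to 2279 CPM in the sleep-deprived library and 2491 CPM in the control library, a ratio of 0.915 (0.901 to 0.929). Bracketed ranges here and below are such intervals, and they cover counting error only.

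The median log2 ratio of the 46 genes was -0.11, with quartiles of -0.36 and 0.14. The median over all 14916 measured genes was -0.01, with quartiles of -0.39 and 0.35. Of the 46 genes, 28 (60.9%) had a ratio below 1, beside 50.9% of all measured genes. A gene is called higher or lower where the ratio reached the stated fold and its interval excluded 1. At 2-fold, Psme4 was higher and Psmd10 lower, which is 1 gene in each direction out of 46. Among all measured genes 4.24% were called higher and 5.65% lower by that rule. At 1.5-fold, Psme4 was again the only gene higher, and Psmd10 and Psmd14 were lower. Those counts are 2.17% and 4.35% of the 46 genes, against 12.5% and 13.6% of all measured genes. The other 43 genes had ratios between 0.668 and 1.45. With no minimum fold, 8 genes (17.4%) were higher and 20 (43.5%) lower, beside 31.4% and 30.5% of all measured genes. The proteasome genes were read more deeply than most, with a median of 648 reads in the sleep-deprived library and 739.5 in the control library, while all measured genes had medians of 331.5 in the sleep-deprived library and 364 in the control library, and deeper genes have narrower intervals.

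**Figure D1:**
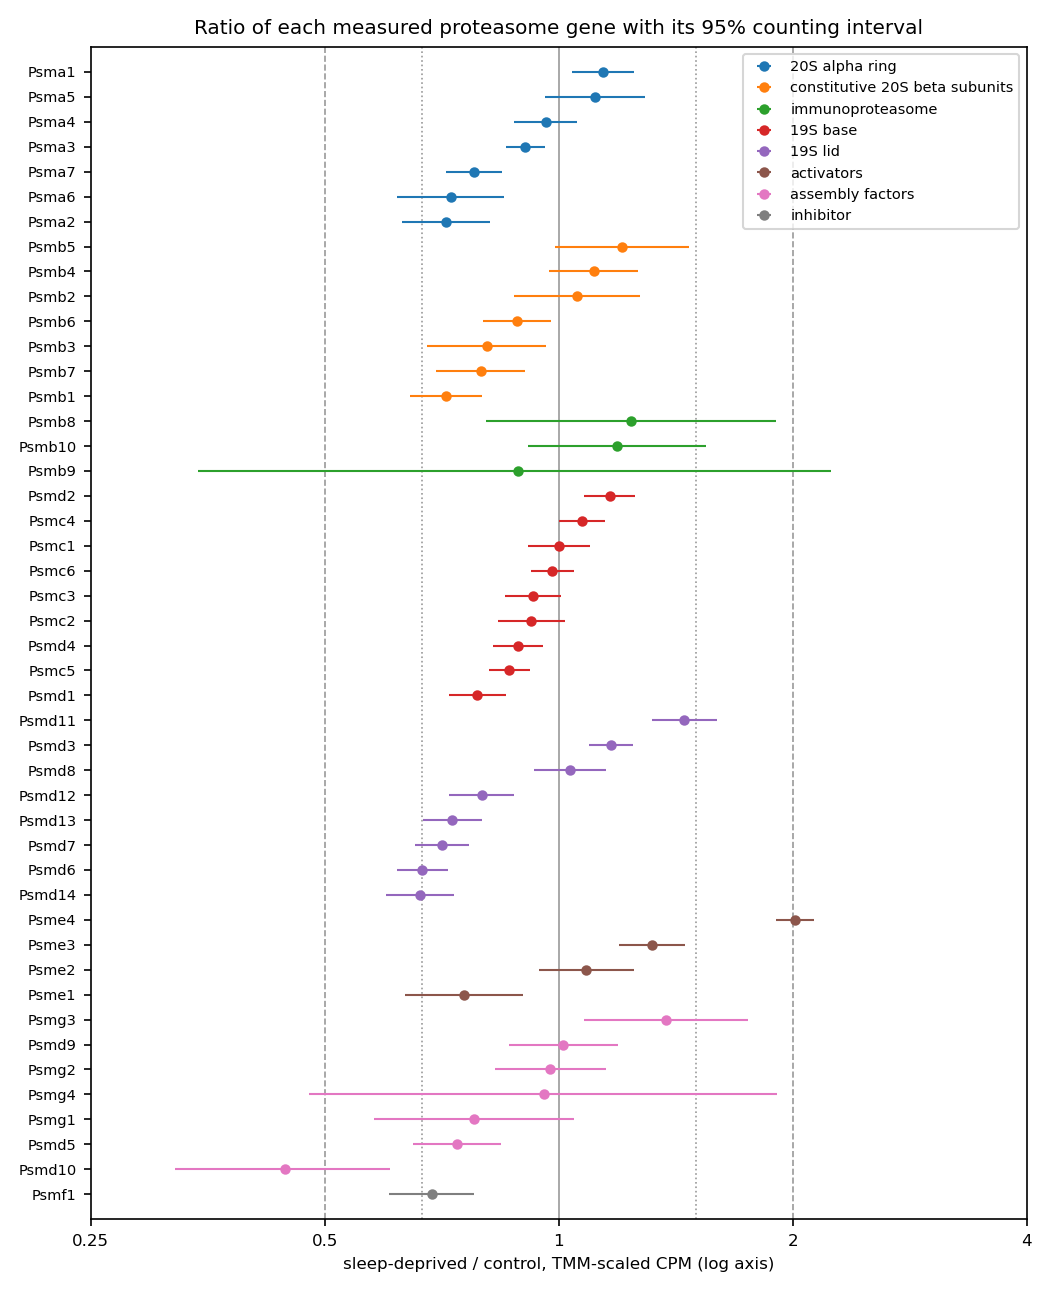
Ratio of sleep-deprived over control for each of the 46 measured proteasome genes, on a log axis in TMM-scaled CPM, ordered by class and by ratio. Points are ratios from 1 library per group, bars are 95% counting intervals, dashed lines mark 2-fold and dotted lines 1.5-fold: Psme4 (2.01), Psmd14 (0.663) and Psmd10 (0.444) stand outside the range of 0.668 to 1.45 that holds 43 of the genes.

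Psme4 codes for PA200, a large activator that caps the 20S core and is known for opening it to unfolded proteins and for the breakdown of acetylated histones in sperm formation and DNA repair. It lies at chr11:30771726-30880361 on the plus strand of GRCm38. The 2 sleep-deprived files held 3594 and 3587 reads on it, against 1897 and 1897 in the control files. Both sleep-deprived values were the higher ones; since the files of a group count as 1 library, their closeness says nothing of the spread between mice. Scaled, this was 253 CPM in the sleep-deprived library and 126 CPM in the control library, a ratio of 2.01 (1.90 to 2.13), and 4.60% of all measured genes had a higher ratio. The interval reaches below 2-fold. The gene fell short of 2-fold when scaled by library totals, by the upper quartile or with length-scaled counts, and its log2 ratio stayed between 0.96 and 1.03 over all alternatives. A single transcript, Psme4-201, took 99.2% of the reads of the gene in each library. No 31-base stretch of its transcripts was shared with another gene.

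The 250 bases before the RefSeq start of Psme4 and of Psmd10, the 2 genes past 2-fold, are shown as the reference sequence next to the genes that moved most. Both are from GRCm38.p6, read 5′ to 3′ on the strand of the gene. The capitals mark the part of an antioxidant response element, described below, that falls before the RefSeq start of Psme4. GENCODE places the start of the gene further upstream, so these bases lie inside the gene span given above. The Psmd10 stretch has none.
Psme4, chr11:30771525-30771774 (+): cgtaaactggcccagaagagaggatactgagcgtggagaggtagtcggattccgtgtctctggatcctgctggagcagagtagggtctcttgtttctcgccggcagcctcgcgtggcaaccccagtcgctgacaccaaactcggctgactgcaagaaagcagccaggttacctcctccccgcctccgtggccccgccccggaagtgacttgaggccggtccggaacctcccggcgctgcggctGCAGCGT
Psmd10, chrX:140956712-140956961 (-): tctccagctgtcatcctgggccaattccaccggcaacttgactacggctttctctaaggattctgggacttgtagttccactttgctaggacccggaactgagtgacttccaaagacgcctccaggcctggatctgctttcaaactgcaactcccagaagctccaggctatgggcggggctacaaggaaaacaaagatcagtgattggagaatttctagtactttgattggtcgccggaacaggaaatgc

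The other activator genes differed less and not in the same direction. Psme3 codes for PA28 gamma, the nuclear activator. It had 919 and 902 reads in the sleep-deprived files and 731 and 736 in the control files, a ratio of 1.32 (1.20 to 1.46). Psme1 and Psme2 code for PA28 alpha and PA28 beta, which form 1 ring together and are inducible by interferon gamma. Psme1 had 224 and 227 reads in the sleep-deprived files and 317 and 318 in the control files, a ratio of 0.756 (0.635 to 0.900). Its log2 ratio of -0.40 depended on the transcripts counted, with -1.06 from length-scaled counts and -0.20 from protein-coding transcripts alone, where the interval holds 1. Psme2 had 408 and 405 reads in the sleep-deprived files against 400.0 and 395 in the control files, a ratio of 1.09 (0.943 to 1.25) whose interval holds 1. The 2 genes are neighbours, at chr14:55578123-55581529 and chr14:55587441-55591113, and the intervals of their ratios over all transcripts did not overlap. With length-scaled counts the log2 ratio of Psme2 was -0.14, against 0.12 in the main setting, so both genes were lower with those counts. Summed over Psme1 to Psme3, the level was 109 CPM in the sleep-deprived library and 96.2 CPM in the control library, a ratio of 1.13 (1.05 to 1.22). With Psme4 the activators summed to 362 CPM in the sleep-deprived library and 222 CPM in the control library, a ratio of 1.63 (1.56 to 1.71).

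The immunoproteasome genes rested on few reads in both libraries. Psmb8, the beta5i subunit, had 50 and 49 reads in the sleep-deprived files and 43 and 43 in the control files, a ratio of 1.24 (0.806 to 1.90). Psmb9, the beta1i subunit, had 9 and 10 reads in the sleep-deprived files and 12 and 13 in the control files, a ratio of 0.887 (0.343 to 2.24). Psmb10, the beta2i subunit, had 126 and 124 reads in the sleep-deprived files and 110.0 and 114 in the control files, a ratio of 1.19 (0.913 to 1.55). All 3 intervals hold 1, and so does that of their sum, which was 13.1 CPM in the sleep-deprived library and 11.1 CPM in the control library, a ratio of 1.18 (0.951 to 1.46). These values sum over all transcripts of a gene, and they change with the transcripts counted, as given below.

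The constitutive catalytic genes that they replace had more reads. Psmb5, the beta5 subunit with chymotrypsin-like activity, had 214 and 225 reads in the sleep-deprived files and 194 and 194 in the control files, a ratio of 1.21 (0.990 to 1.47). Psmb6, the beta1 subunit with caspase-like activity, had 694 and 698 reads in the sleep-deprived files and 842 and 834 in the control files, a ratio of 0.884 (0.798 to 0.978). Psmb7, the beta2 subunit with trypsin-like activity, had 398 and 395 reads in the sleep-deprived files and 527 and 536 in the control files, a ratio of 0.794 (0.695 to 0.906). Psmb6 and Psmb7 were thus lower at no minimum fold, while the interval of Psmb5 just holds 1.

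Levels of different genes were compared per length, as the authors' TPM. On that scale the median of all measured genes shifted by 0.22 on the log2 scale towards the sleep-deprived library, so TPM served for ranking genes and for shares within a library. Immunoproteasome genes held 12.4% and 12.3% of the TPM of the 6 catalytic genes in the sleep-deprived files and 13.7% and 14.5% in the control files, a difference of -1.74 percentage points. The share differed by position. At beta5, Psmb8 held 15.4% of the TPM in the sleep-deprived library and 11.2% in the control library. At beta2, Psmb10 held 33.6% in the sleep-deprived library and 37.9% in the control library. At beta1, Psmb9 held 0.760% in the sleep-deprived library and 1.01% in the control library.

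The direction of the immunoproteasome share turned with the transcripts counted. With protein-coding transcripts alone, the share was 9.13% in the sleep-deprived library and 4.40% in the control library, a difference of 4.73 percentage points. Among the transcripts left out was the short non-coding Psmb10-203, of 426 bases, which had 0 reads in both sleep-deprived files, against 33.9 and 42.8 reads in the control files. A short transcript adds much TPM for few reads, but its part in the change of direction was not tested. Other genes of the share changed as well. Psmb6 stood at 60.2 TPM in the sleep-deprived library and 61.2 in the control library over protein-coding transcripts, against 172 and 171 over all transcripts. The protein-coding reads behind the share were 69.2 in the sleep-deprived library and 41.8 in the control library for Psmb10. They were 40.7 in the sleep-deprived library and 28.3 in the control library for Psmb8, and 4.01 in the sleep-deprived library and 2.20 in the control library for Psmb9. The summed ratio of the 3 genes was 1.71 from protein-coding transcripts alone and 0.859 from length-scaled counts, so no direction is given for them together. Psmb10 was past 1.5-fold in opposite directions, with a ratio of 1.78 (1.19 to 2.67) from protein-coding transcripts and 0.664 from length-scaled counts. Psmb8 had a ratio of 1.58 (0.956 to 2.66) from protein-coding transcripts, an interval that holds 1, and of 1.77 from length-scaled counts. Psmb9 had log2 ratios of 0.53 from protein-coding transcripts, with an interval that holds 1, and -0.55 from length-scaled counts. Length-scaled counts are TPM times length and not reads, so no counting interval is given for them.

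**Figure D2:**
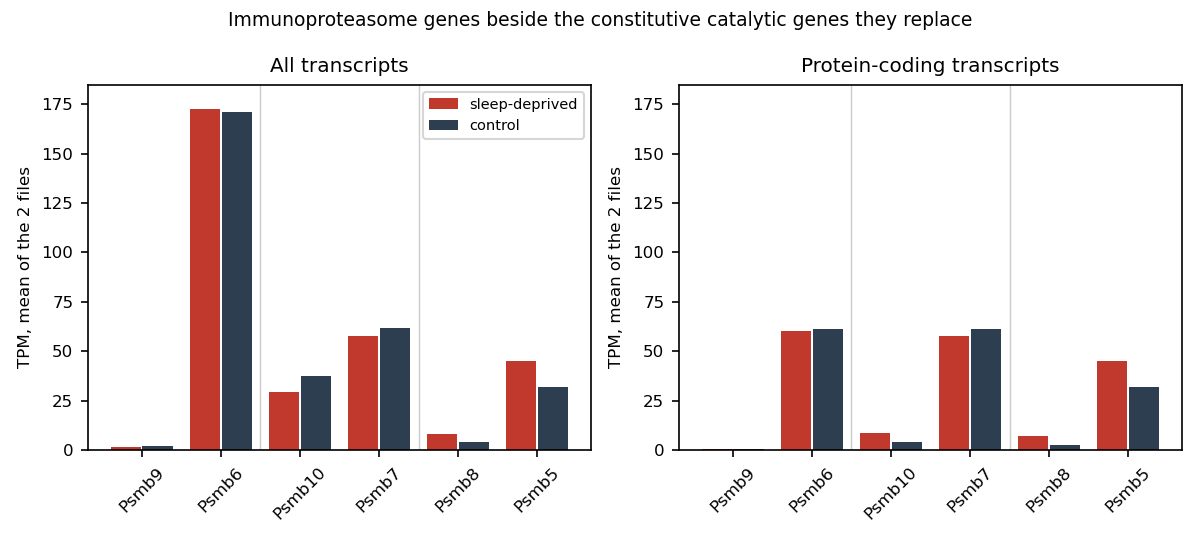
TPM of the 3 immunoproteasome genes, each left of the constitutive catalytic gene it replaces, from all transcripts (left panel) and from protein-coding transcripts alone (right panel). Bars are the mean of the 2 files of a group and start at 0: Psmb10 stood at 29.2 TPM in the sleep-deprived library and 37.7 TPM in the control library over all transcripts, but at 8.64 TPM in the sleep-deprived library and 4.20 TPM in the control library over protein-coding transcripts.

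Genes that work beside the immunoproteasome in antigen presentation were read from a list of 10, all measured. None passed 1.5-fold in either direction, beside 12.5% of all measured genes higher and 13.6% lower. With no minimum fold, 3 (30%) were higher and 2 (20%) lower, beside 31.4% and 30.5% of all measured genes. B2m, the light chain of class I molecules, stood at 58.7 CPM in the sleep-deprived library and 42.2 CPM in the control library, a ratio of 1.39 (1.25 to 1.55). The class I heavy chain gene H2-D1 had a ratio of 1.20 (1.11 to 1.28). H2-K1, another class I heavy chain gene, had a ratio of 0.705 (0.615 to 0.808), and the peptide transporter gene Tap2 of 0.777 (0.636 to 0.948). Its partner Tap1 had a ratio of 0.948 (0.607 to 1.48).

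The alpha ring genes code for the outer rings of the core. Their 7 genes summed to 425.5 CPM in the sleep-deprived library and 471 CPM in the control library, a ratio of 0.903 (0.872 to 0.934), and 1 gene was higher and 4 lower with no minimum fold, where 31.4% of all measured genes were higher and 30.5% lower. Psma1 was the higher one, with 967 and 951 reads in the sleep-deprived files and 880 and 913 in the control files, a ratio of 1.14 (1.04 to 1.25). Psma2 had the lowest ratio, with 392 and 393 reads in the sleep-deprived files and 582 and 582 in the control files, a ratio of 0.717 (0.629 to 0.816). Psma6 and Psma7 were lower at 0.726 and 0.778, and Psma3 at 0.905 (0.854 to 0.959). From protein-coding transcripts alone the log2 ratio of Psma7 was -0.63, and with length-scaled counts -0.15, against -0.36 over all transcripts. Psma3 shares sequence with the gene Gm13835, to which 0 reads were assigned in the sleep-deprived library and 101.5 in the control library, and the ratio with those reads added was 0.870 (0.822 to 0.921). Psma4 and Psma5 had ratios of 0.962 and 1.11 with intervals that hold 1. Levels in TPM were unequal within the ring although its subunits are built in at equal number. Psma7 stood at 424 TPM and Psma2 at 29.7 TPM in the sleep-deprived library, against 405 and 35.3 TPM for these genes in the control library. The Psma7 level includes short non-coding transcripts, such as Psma7-205 of 288 bases, with 55.4 reads in the sleep-deprived library and 58.8 in the control library. In scaled CPM Psma3 was the highest of the ring, at 153 in the sleep-deprived library and 169 in the control library. Psma7 stood at 71.3 CPM in the sleep-deprived library and 91.6 CPM in the control library.

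The constitutive beta genes summed to 198 CPM in the sleep-deprived library and 225 CPM in the control library, a ratio of 0.881 (0.838 to 0.926). No gene of this ring was higher and 4 of 7 were lower with no minimum fold, beside 31.4% higher and 30.5% lower among all measured genes. Besides Psmb6 and Psmb7, these were the non-catalytic genes Psmb1 and Psmb3. Psmb1 had 573 and 575 reads in the sleep-deprived files against 852 and 852 in the control files, a ratio of 0.717 (0.644 to 0.798). Psmb3 had a ratio of 0.808 (0.677 to 0.963). The remaining non-catalytic genes Psmb2 and Psmb4 had ratios of 1.05 and 1.11 with intervals that hold 1.

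The 19S base showed the smallest difference of the classes whose summed interval excluded 1. It summed to 848 CPM in the sleep-deprived library and 890.1 CPM in the control library, a ratio of 0.952 (0.929 to 0.976), and with length-scaled counts the ratio was 1.007. The ATPase genes Psmc1, Psmc2, Psmc3 and Psmc6 had ratios between 0.921 and 1.002 with intervals that hold 1. Psmc4 had a ratio of 1.07 (1.001 to 1.15) and Psmc5 of 0.863 (0.813 to 0.917). The scaffold genes of the base differed in direction. Psmd2 had 1480 and 1471 reads in the sleep-deprived files against 1349 and 1351 in the control files, a ratio of 1.16 (1.08 to 1.25). Psmd1 had 983 and 979 reads in the sleep-deprived files against 1324 and 1332 in the control files, a ratio of 0.786 (0.723 to 0.854). Psmd4, a ubiquitin receptor, had a ratio of 0.886 (0.822 to 0.955).

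The lid had the lowest median ratio of the classes with several genes. Its genes summed to 564 CPM in the sleep-deprived library and 648 CPM in the control library, a ratio of 0.870 (0.845 to 0.896), and with no minimum fold 2 of 8 were higher and 5 lower, beside 31.4% and 30.5% of all measured genes. Psmd14 codes for Rpn11, the metalloprotease that cleaves ubiquitin chains from substrates. It had 625 and 619 reads in the sleep-deprived files and 998 and 998 in the control files, a ratio of 0.663 (0.599 to 0.734). It fell short of 1.5-fold with DESeq2 size factors, with no filter and with protein-coding transcripts alone, and its log2 ratio stayed between -0.70 and -0.47 over the alternatives. Psmd7, whose product pairs with Rpn11, had 1037 and 1040 reads in the sleep-deprived files and 1556 and 1563 in the control files, a ratio of 0.708 (0.654 to 0.766). Psmd6 had a ratio of 0.668 (0.619 to 0.720), just inside 1.5-fold. It passed 1.5-fold with upper-quartile scaling, with library totals and with protein-coding transcripts alone, where its log2 ratio was -0.80. With length-scaled counts the log2 ratio of Psmd6 was smaller in size, at -0.44 against -0.58 in the main setting. Psmd13 and Psmd12 had ratios of 0.730 and 0.796.

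Psmd11 and Psmd3 went the other way within the lid. Psmd11, a scaffold subunit that bridges lid, base and core, had 1021 and 1012 reads in the sleep-deprived files and 760 and 730 in the control files, a ratio of 1.45 (1.32 to 1.60) that passed 1.5-fold with length-scaled counts, at a log2 ratio of 0.69. Psmd3, another subunit of the lid, had a ratio of 1.17 (1.09 to 1.25). Psmd8 had a ratio of 1.03 (0.928 to 1.15). Ratios of these 8 lid genes, whose subunits are built in at equal number, thus ran from 0.663 to 1.45. The lid subunit gene Sem1, whose symbol falls outside the naming rule, is not in these values and had a ratio of 0.593. The median log2 ratio of the lid genes was -0.39, beside -0.11 for the base.

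**Figure D3:**
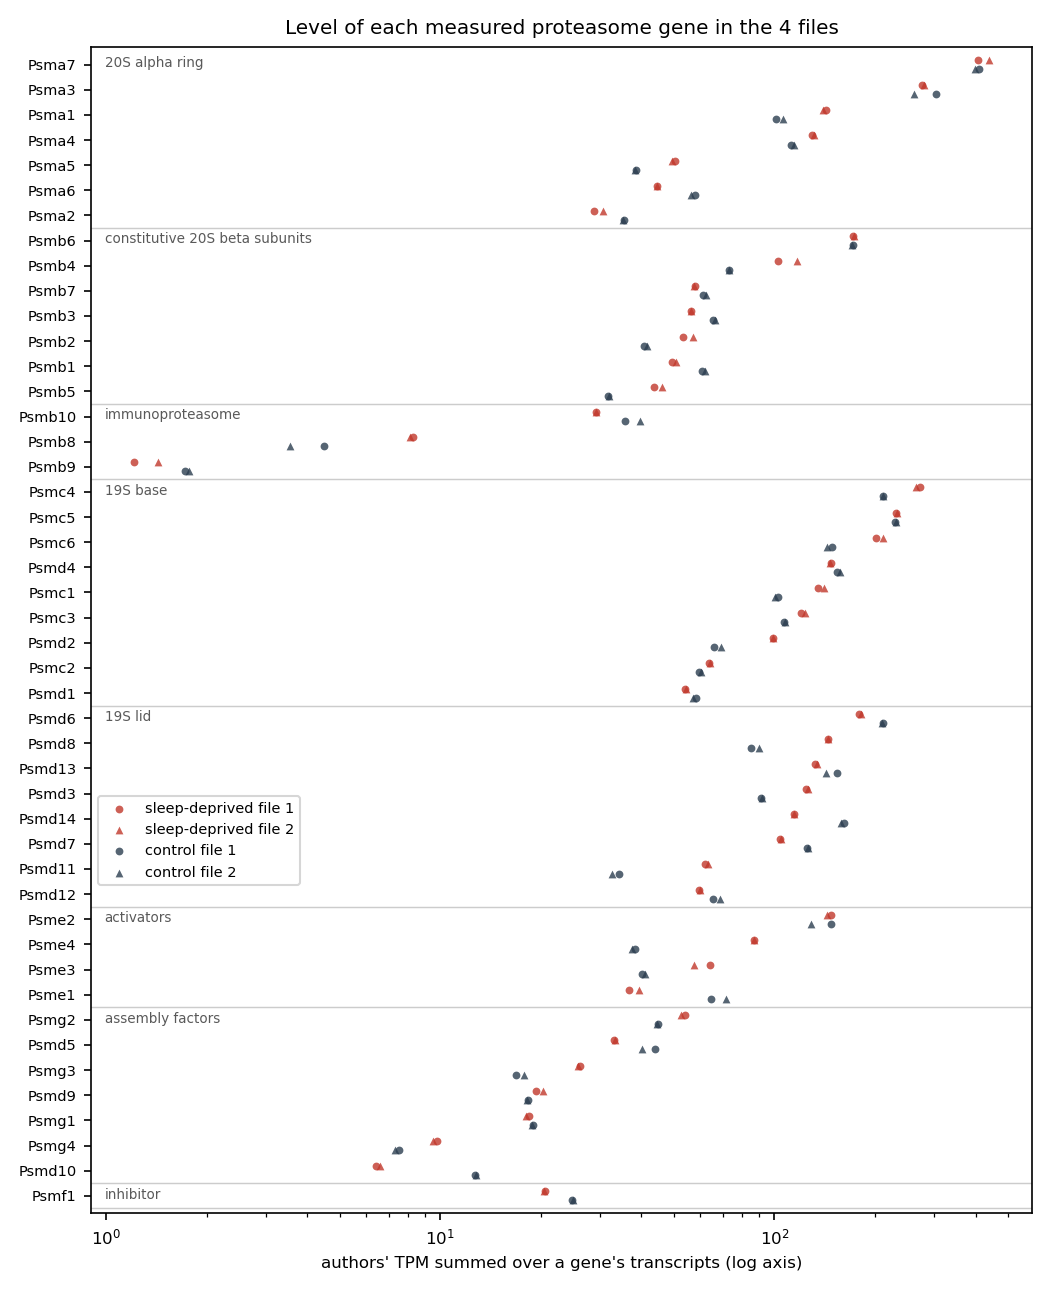
The authors' TPM of each measured proteasome gene in each of the 4 files, on a log axis, grouped by class and ordered by level. Circles and triangles are the 2 files of a group, sleep-deprived above control: files of a group lie close together, and the genes run from Psmb9 at 1.32 TPM in the sleep-deprived library and 1.75 TPM in the control library to Psma7 at 424 TPM in the sleep-deprived library and 405 TPM in the control library.

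Assembly factors are chaperones that build the particle and leave it. Psmd10, or gankyrin, is a chaperone of the base and is also known as an oncoprotein that binds the retinoblastoma protein and the p53 ligase MDM2. It lies at chrX:140948429-140956728 on the minus strand. It had 57 and 58 reads in the sleep-deprived files and 139 and 139 in the control files, or 4.09 CPM in the sleep-deprived library and 9.22 CPM in the control library, a ratio of 0.444 (0.321 to 0.607). Among all measured genes 4.81% had a lower ratio. Psmd5, a base chaperone as well, had 397 and 398 reads in the sleep-deprived files and 579 and 566 in the control files, a ratio of 0.740 (0.650 to 0.843). The third base chaperone gene, Psmd9, had a ratio of 1.01 (0.863 to 1.19).

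Psmg1 to Psmg4 code for the chaperones that build the alpha ring, working as the pairs Psmg1 with Psmg2 and Psmg3 with Psmg4. Psmg3 was the gene of this class with a higher level: it had 160 and 160 reads in the sleep-deprived files and 122 and 125 in the control files, a ratio of 1.37 (1.08 to 1.75). Its partner Psmg4 had 19 and 18 reads in the sleep-deprived files and 20 and 20 in the control files, a ratio of 0.957 (0.478 to 1.91). Psmg1 and Psmg2 had ratios of 0.779 (0.579 to 1.04) and 0.976 (0.828 to 1.15). The inhibitor gene Psmf1, coding for PI31, which binds the core and is also known as an adaptor for moving proteasomes along axons, had 413 and 413 reads in the sleep-deprived files and 642 and 637 in the control files, a ratio of 0.687 (0.605 to 0.778). The log2 ratio of Psmf1 was -0.54, against -0.59 with library totals and -0.82 from protein-coding transcripts alone. The 2 tissue-restricted genes were under the filter on low counts. Psma8, of the testis, had 3 and 3 reads in the sleep-deprived files and 6 and 6 in the control files. Psmb11, of the thymus, had 0 reads in all 4 files, which allows up to 0.212 CPM in the sleep-deprived library and 0.199 CPM in the control library.

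Transcript length was compared with the ratio because Psme4 is the longest transcript of the family, at 5678 bases on average. Over the 46 genes, log2 ratio and log length had a Pearson r of 0.19 and a Spearman rho of 0.02, and without Psme4 these were -0.03 and -0.05 over 45 genes. The points share the same 2 libraries, and the values are a description. Over all 14916 measured genes the values were 0.03 and 0.00. Among the 2217 measured genes between 4000 and 6000 bases, the range that holds Psme4, the median log2 ratio was -0.01, and Psme4 was at 1.01. Among the 1561 measured genes under 1000 bases the median was -0.09, and the 14 proteasome genes of that range had a median of -0.05.

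**Figure D4:**
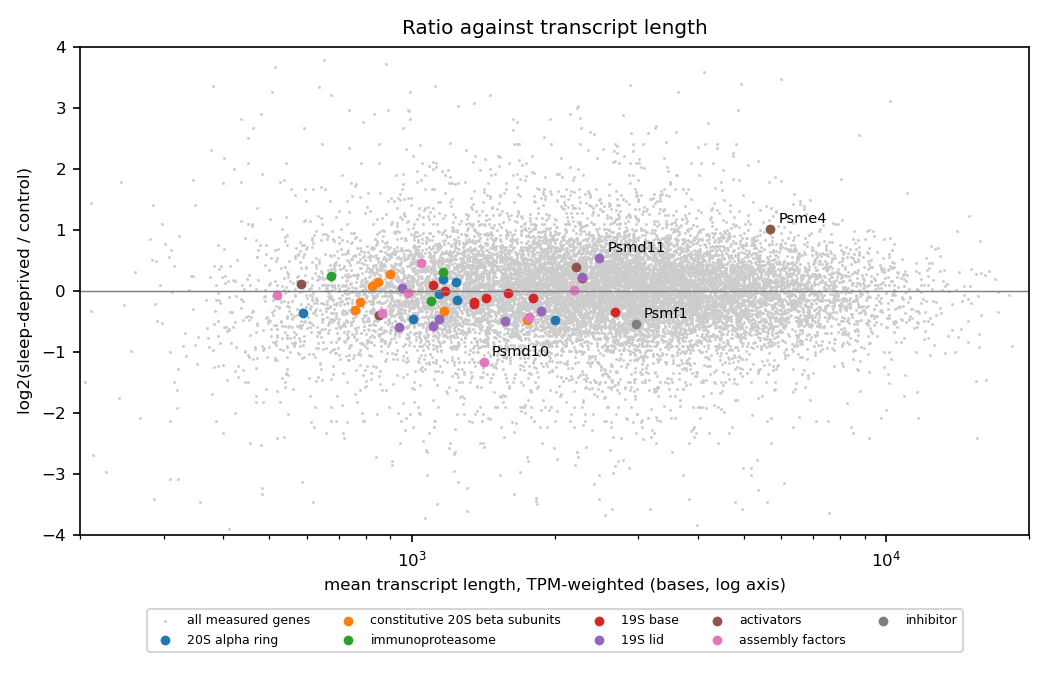
Log2 ratio of sleep-deprived over control against mean transcript length in bases on a log axis, with all measured genes in grey and proteasome genes coloured by class. Psme4 is the only proteasome gene between 4000 and 6000 bases. The median of all measured genes ran from -0.09 under 1000 bases to 0.03 between 1500 and 2500 bases. Outside the axes lie 47 measured genes.

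Reads within a gene were spread differently over its transcripts in some proteasome genes. Of the 41 with at least 100 reads in both libraries, 5 (12.2%) had a transcript whose share differed by 20 percentage points or more, beside 1725 of 10409 genes (16.6%) overall. Psmd8-202, protein-coding, took 43.7% of the reads of Psmd8 in the sleep-deprived library and 77.6% in the control library. Psmb2-201, protein-coding, took 69.8% in the sleep-deprived library and 96.3% in the control library. The non-coding Psmb2-203 took 29.5% in the sleep-deprived library and 3.70% in the control library. Psma7-201, the main transcript of the gene with the highest TPM, took 42.02% in the sleep-deprived library and 63.1% in the control library. Psme2-201 went the other way, with 38.9% in the sleep-deprived library and 14.1% in the control library, and Psmb10-203 is given above.

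Transcripts annotated as retained introns, which keep an intron and code for no annotated protein, held a larger share in the sleep-deprived library. Of 29 proteasome genes with such a transcript and at least 100 reads in each library, the share was larger in the sleep-deprived library in 23 (79.3%), beside 4045 of 6600 genes (61.3%) overall. Pooled over all 48 proteasome genes, retained introns held 16.5% of reads in the sleep-deprived library and 14.3% in the control library. Over all protein-coding genes they held 13.3% in the sleep-deprived library and 10.8% in the control library. Psmd8 had the largest difference, with 30.8% in the sleep-deprived library and 11.6% in the control library. Psmb10 followed with 44.7% in the sleep-deprived library and 28.4% in the control library, and Psma7 with 36.3% in the sleep-deprived library and 23.3% in the control library. Psmd4 went the other way, with 13.7% in the sleep-deprived library and 19.7% in the control library. Salmon divides reads between overlapping transcripts by a model, so these shares are estimates.

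**Figure D5:**
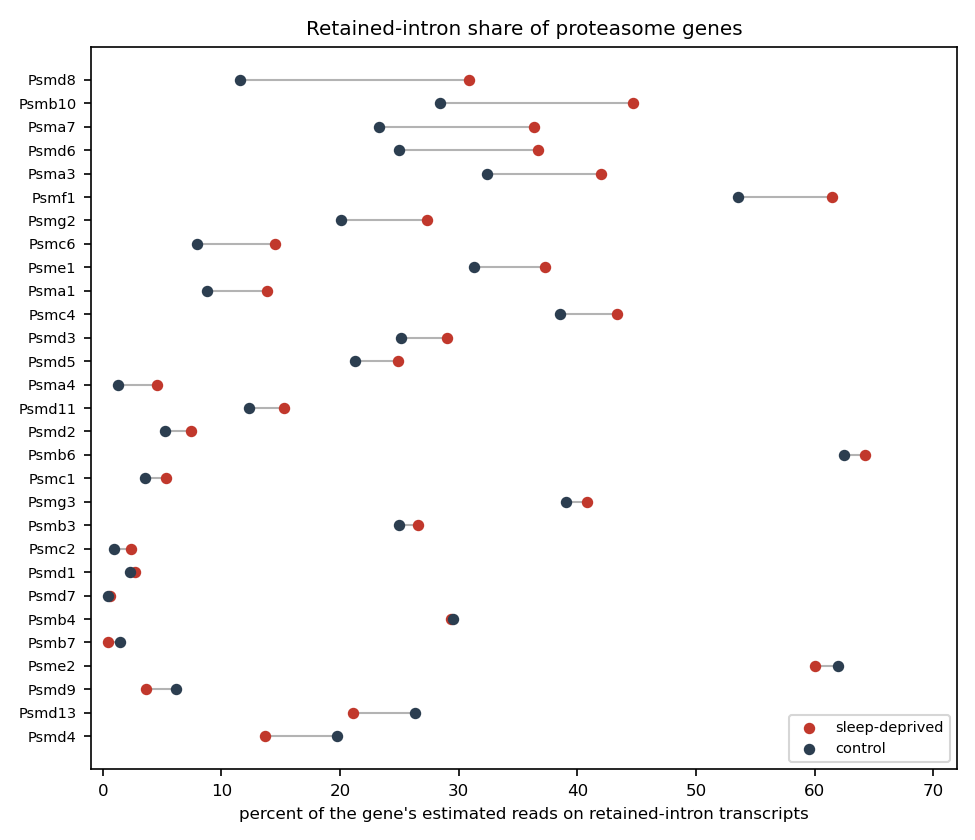
Share of the reads of each proteasome gene on retained-intron transcripts, in percent, for the 29 genes with such a transcript and at least 100 reads per library. Each line joins the sleep-deprived and the control value of a gene: in 23 genes the sleep-deprived value is the larger, most of all in Psmd8 at 30.8% in the sleep-deprived library and 11.6% in the control library.

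The other genes of the pathway, which supply ubiquitin, deliver substrates or regulate the particle, were read from a list of which 31 genes were matched and measured. None passed 2-fold. At 1.5-fold 0 were higher and 6 (19.4%) lower, beside 12.5% and 13.6% of all measured genes. With no minimum fold, 5 (16.1%) were higher and 15 (48.4%) lower, beside 31.4% and 30.5% of all measured genes. Rps27a, which codes for ubiquitin fused to a ribosomal protein, had a ratio of 0.692 (0.642 to 0.746). Ubb, which codes for a chain of ubiquitin units, stood at 281 CPM in the sleep-deprived library and 290.2 CPM in the control library, a ratio of 0.967 (0.926 to 1.01). The genes 1.5-fold lower included Sem1, a small lid subunit (0.593), and Uchl5, a deubiquitinase of the base (0.631). They also included Ubqln2, a shuttle factor (0.581), and Fbxo7, a ubiquitin ligase subunit that binds PI31 (0.562). Ecpas, which binds the 26S proteasome as a scaffold, had the highest ratio of those named here, at 295 CPM in the sleep-deprived library and 202 CPM in the control library, a ratio of 1.46 (1.40 to 1.53). Pomp, the chaperone of core assembly, had a ratio of 0.751 (0.660 to 0.854). Nfe2l1, the transcription factor known to induce proteasome genes when proteasomes are inhibited, had a ratio of 1.02 (0.938 to 1.11).

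That factor and its relative Nfe2l2 bind antioxidant response elements, whose core letters are TGACNNNGC. Promoters were available for 40 of the 48 genes in RefSeq, as 250 bases before to 50 bases after the start. The letters were found on either strand in 6 of the 40 (15%), beside 3781 of 27025 genes (13.99%) over all promoters of the same length, so the share was near that of all genes. The 6 stretches are shown to set each gene's ratio beside its letters, from GRCm38.p6, read 5′ to 3′ on the strand of the gene, with the match in capitals.
Psmb5, chr14:54618024-54618052 (-): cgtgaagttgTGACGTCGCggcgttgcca
Psmb6, chr11:70525338-70525366 (+): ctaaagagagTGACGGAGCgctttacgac
Psmc6, chr14:45329587-45329615 (+): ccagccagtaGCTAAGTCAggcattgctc
Psmd12, chr11:107479278-107479299 (+): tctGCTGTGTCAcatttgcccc
Psmd9, chr5:123228149-123228177 (+): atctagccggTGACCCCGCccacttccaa
Psme4, chr11:30771758-30771786 (+): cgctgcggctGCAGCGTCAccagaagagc
The ratios of these genes were 1.21 for Psmb5, 0.884 for Psmb6, 0.981 for Psmc6, 0.796 for Psmd12, 1.01 for Psmd9 and 2.01 for Psme4. They lie on both sides of 1, and the match is a description of the letters, not of binding.

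Several genes share sequence with other genes, and their values are less certain. Of the 31-base stretches of their transcripts, 65.7% were shared in Psmb5, 58.7% in Psma5, 33.5% in Psme2, 32.2% in Psmc1 and 31.6% in Psmd2. Psme4, Psmd10, Psme3, Psmd6 and Psmd7 shared none, and Psmd14 shared 3.63%.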

How the data were processed

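Hippocampal ribosome-pulldown RNA was sequenced in 4 samples, 2 sleep-deprived and 2 control. The submitters' processing notes name Salmon, DESeq2 and mm10. Their versions, the strand setting and the annotation were not given in the sources used here. Per the file headers, each file lists, for 116546 transcripts, the authors' estimated counts, TPM, and lengths (the effective length was not used as a measurement).

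Transcripts were matched to GENCODE mouse release 21 on GRCm38 (115977, or 99.5%), and the deposited estimated counts were summed over all transcripts of a gene and rounded; unmatched transcripts held 0.241% to 0.270% of reads. The deposited TPM were summed likewise and used for levels between genes. The 2 files of a group were compared by a chi-square test per degree of freedom on genes of 20 or more reads. It gave 0.231 for the sleep-deprived and 0.335 for the control files, and 69.1 to 69.3 across groups, so the files of a group were averaged to 1 library. This leaves no residual degrees of freedom, and a rule of size replaced the planned edgeR quasi-likelihood test. Counts were scaled by TMM (edgeR 4.0.16, R 4.3.3); filterByExpr with a minimum count of 10 kept 14916 genes. A call needs a ratio of 2-fold or 1.5-fold and an exact conditional (Clopper-Pearson) 95% interval that excludes 1, with fewer than 3 reads set to 3 for the fold. Reads are not independent molecules, so intervals and floors cover counting error only. Length-scaled counts are TPM times a mean transcript length and not reads. The same interval entered the calls from them, but there it does not measure counting error. The calling code was tested on simulated data.

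The proteasome genes, gene lists and tests were chosen with earlier results of these data known. Values are given for the catalytic genes, each gene past 1.5-fold, the highest and lowest ratio and level of each class, genes under the filter, and, of other pathway genes, those past 2-fold and the 3 most abundant, some of which are not reported here; the remaining genes are given by their ratios, and the other pathway and antigen presentation genes named were chosen after their values were seen. Of 33 listed pathway symbols, 31 matched; AI314180 is an older symbol of Ecpas, and Paaf1 was not analysed here. Alternatives covered scaling (with DESeq2 1.42.0 for size factors), the filter, transcript length, biotype and leaving out each file. Promoters are from RefSeq. Python 3.11.15, scipy 1.17.1 and matplotlib 3.10.9 were used.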

Additional observations from a re-analysis of the deposited data

How the results depend on the processing

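Most values kept their size across the alternatives: outside the leave-one-out settings, 49 summary values stayed, 22 moved and 2 reversed. A value stayed if it lay inside the range of the main setting, and a count if within 1.5-fold of the main count. Reversed means a change of direction where the main range excluded no difference. The summed immunoproteasome ratio, whose main interval holds 1, went from 1.18 to 0.859 with length-scaled counts and is among those that moved. The 2 reversals were the immunoproteasome share of catalytic TPM, 4.73 points higher in the sleep-deprived library from protein-coding transcripts alone against -1.74 points, and the summed 19S base ratio, 1.007 with length-scaled counts against 0.952. With library totals alone, 0 of 46 proteasome genes were 2-fold higher and 4 were 1.5-fold lower (against 1 and 2). Of all measured genes, 3.84% were 2-fold higher and 15.4% were 1.5-fold lower in that setting. The median log2 ratio of the proteasome genes was -0.16, beside -0.06 for all measured genes. The summed ratios were 0.872 for the alpha ring, 0.920 for the base and 0.840 for the lid. Upper-quartile scaling gave 0 genes 2-fold higher, beside 4.07% of all measured genes. DESeq2 size factors and no filter each gave 1 gene 1.5-fold lower, beside 13.3% and 10.7% of all genes in those settings. Without the filter the median of all genes shifted to 0.10 on the log2 scale. With length-scaled counts, 0 proteasome genes were 2-fold higher, 2 were 2-fold lower, 3 were 1.5-fold higher and 4 were 1.5-fold lower. Of all measured genes in that setting, 5.49% were 2-fold higher, 6.996% 2-fold lower, 14.2% 1.5-fold higher and 15.2% 1.5-fold lower. The median log2 ratio of the proteasome genes there was -0.15, beside -0.0051 for all measured genes. Summed ratios were 0.859 for the immunoproteasome, 0.915 for the lid and 1.52 for the activators. From protein-coding transcripts alone, 2 proteasome genes were 1.5-fold higher and 4 were 1.5-fold lower, beside 15.03% and 14.2% of all measured genes. Summed ratios there were 1.71 for the immunoproteasome, 0.920 for the base and 1.77 for the activators. For all of these the cause was not tested. Psme1 had a log2 ratio of -1.06 with length-scaled counts against -0.40. Leaving out each file gave a 1.5-fold lower count between 2 and 3, beside 13.5% to 13.8% of all measured genes. As the files of a group are near copies, this is no check of stability.

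No paired analysis was possible because both files of each group were closer together than counting noise and entered as 1 library, which leaves no residual degrees of freedom; the replicate block, the edgeR quasi-likelihood test and the DESeq2 Wald test were not run. The scaling alternatives do not apply to shares of TPM. With 1 library per group, differences between mice and pulldowns cannot be told apart from the effect of sleep deprivation, and the intervals of Psmb9 and Psmg4 span about 2-fold or more on either side.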
